A study of Mus musculus with 10 samples.

Results

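Monocyte-derived macrophages (MDMs) of dystrophic muscle were compared with skeletal muscle-resident macrophages (SkMRMs) of healthy muscle in bulk RNA of sorted cells. All 3 libraries labelled MDM and all 3 labelled SkMRM were used, 6 of the 10 libraries of the experiment, across all 17001 genes of the deposited table. The cells came from hindlimb muscle of mice 4 weeks old. SkMRMs were sorted from C57BL/10 wild-type (WT) mice and MDMs from B10.mdx mice, which lack dystrophin. The study's flow cytometry panel separates the populations by gal-3, Folr2 and CD52. In it SkMRMs are the cells of WT muscle with high Folr2, and MDMs the CD52-positive cells of mdx muscle with little gal-3 and no Folr2. The labels call the libraries of a population biological replicates and do not say whether each is 1 mouse or a pool. The libraries hold no MDMs of WT mice and no SkMRMs of mdx mice, so cell origin and the dystrophic muscle cannot be told apart in any difference given here. The other 4 libraries are gal-3+ macrophages of mdx mice, which entered the fit and serve as the second dystrophic population. Columns are named WT1, WT2 and WT3 for SkMRMs and mdx1, mdx4 and mdx5 for MDMs, and values per library are given in that order.

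Macrophages of adult muscle have 2 sources. Resident macrophages take up debris and dying cells, handle iron from heme and lie in the connective tissue around muscle fibers and tendon. Blood monocytes enter through the chemokine receptor Ccr2 when fibers are injured, and in mice the inflammatory type carries Ly6C on its surface. Once in the tissue, they change from inflammatory cells into macrophages that clear and rebuild. Mdx muscle goes through repeated rounds of fiber death and regeneration from an early age, so both kinds of cell meet there.

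The values are read counts per gene divided by 1 size factor per library, called normalized counts below. The SkMRM libraries held 24323114, 36000868 and 75907638 reads, as recovered from these values, and the MDM libraries 22395027, 27652763 and 29186317. On the log2 scale, the correlation across genes was 0.955 to 0.960 between MDM libraries, 0.963 to 0.968 between SkMRM libraries and 0.848 to 0.873 between an MDM and an SkMRM library. Genes are not independent replicates, and these values only describe the libraries. The libraries also differed in ways that the groups do not name. *Xist*, which coats the inactive X chromosome of females, had 6437, 1878 and 23983 normalized counts in SkMRMs against 4.74, 0 and 0 in MDMs, and the summed level of the Y-linked *Ddx3y*†, *Uty*†, *Kdm5d*† and *Eif2s3y*† was 3782, 4898 and 40.4 in SkMRMs and 6231, 5052 and 5607 in MDMs. The sex of the mice is not labelled. WT1 and WT2 carried both kinds of transcript, WT3 almost only *Xist* and the MDM libraries almost only the Y-linked genes. Sex and group are thus partly confounded. The nuclear transcripts *Gm26917*, *Gm42418* and *Gm23935*†, which hold ribosomal RNA-like sequence, took 9.97%, 10.8% and 9.84% of the normalized total in SkMRMs and 20.8%, 15.8% and 13.5% in MDMs, with the highest share in MDM mdx1. Counts that lead a paragraph are therefore also given without WT3 and MDM mdx1 where they move by over 1.5 times. The dagger (†) marks genes chosen after their values were seen.

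MDMs and SkMRMs differed across a wide part of the transcriptome. A gene was called where it changed by 2-fold or more with an adjusted p below 0.01 (limma on log2 of the normalized count plus 1, which understates the change of low genes). Of 17001 genes tested, 1498 were higher in MDMs (8.81%) and 3064 were lower (18.0%). With each library centred on its own median, 2865 were higher and 2287 lower, which moved the share of higher genes among the calls from 32.8% to 55.6%. The median log2 fold change over all genes was -0.17 as deposited, -0.15 with TMM scaling, -0.32 with upper quartile scaling and 0.17 after centring. Changes near these values are not given a direction here. Without both WT3 and MDM mdx1, 1581 genes were higher and 2627 lower. Log2 fold changes below are MDMs minus SkMRMs with their standard error, and p-values measure the spread between sorted samples. A value in parentheses or after "at" that follows a gene is its log2 fold change.

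**Figure D1:**
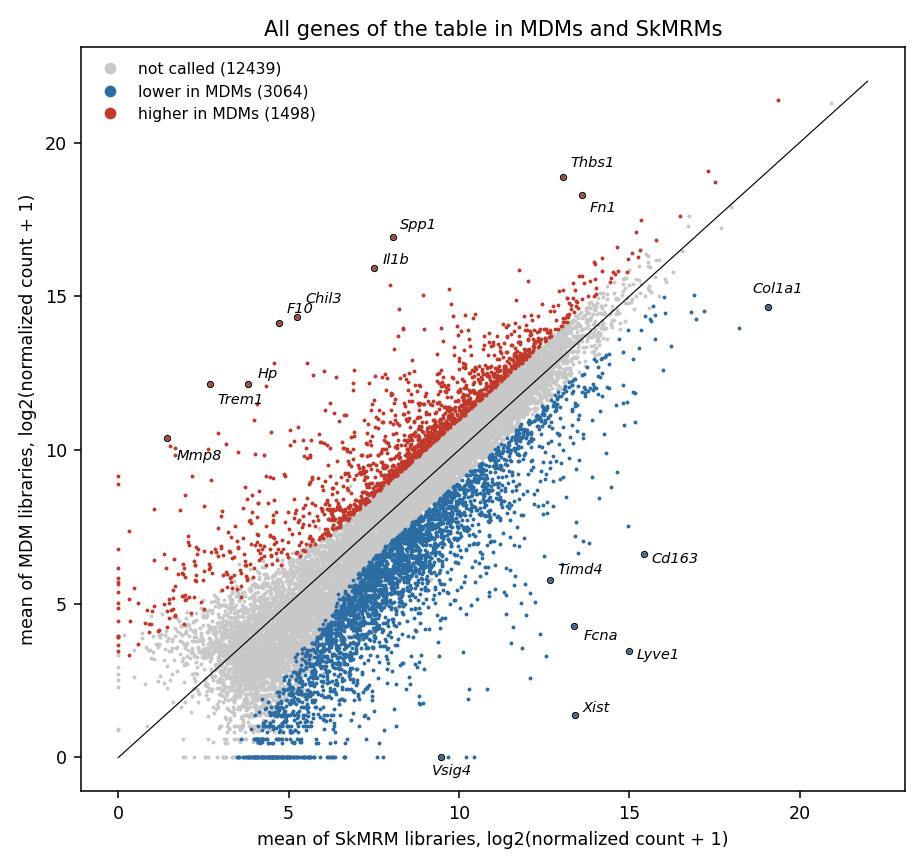
Mean of the 3 SkMRM libraries (x axis) against the mean of the 3 MDM libraries (y axis), both as log2 of the normalized count plus 1, for 17001 genes, with genes called higher in MDMs in red (1498), called lower in blue (3064) and not called in grey. *F10*, *Trem1*, *Mmp8* and *Chil3* lie far above the line of equal level and *Lyve1*, *Xist*, *Fcna* and *Cd163* far below it.

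The 5 marker genes parted the libraries as their labels say. *Ly6c2*, which encodes the Ly6C protein of inflammatory monocytes, had 95.6, 9.32 and 113 normalized counts in SkMRMs against 2454, 2947 and 3387 in MDMs (log2 fold change 5.91 ± 0.63). *Ccr2* had 872, 629.8 and 1996 in SkMRMs against 21304, 22424 and 20292 in MDMs (log2 fold change 4.37 ± 0.26). *Chil3*, which encodes the chitinase-like lectin Ym1, had 57.2, 19.4 and 35.01 in SkMRMs against 17505, 28922 and 15767 in MDMs in the same order (log2 fold change 9.16 ± 0.29). All MDM libraries stood above all SkMRM libraries for these genes, and the SkMRM levels of *Ly6c2* and *Ccr2* varied more between libraries, relative to their mean, than those of the MDMs. *Hp*, which encodes the hemoglobin-binding protein haptoglobin, had 11.7, 14.8 and 12.3 in SkMRMs against 3736, 5217 and 4652 in MDMs (log2 fold change 8.34 ± 0.20). *Timd4*, a receptor for phosphatidylserine on dying cells and a marker of resident macrophages, had 7290.1, 5168 and 6998 in SkMRMs against 39.5, 82.9 and 37.6 in MDMs (log2 fold change -6.98 ± 0.25), with no overlap. The weakest of the 5 calls was that of *Ly6c2* (adjusted p = 4.87e-07). Its close paralog *Ly6c1*† shares sequence with it, so the split of reads between them is uncertain. Of the genes of the panel proteins, *Cd52* and *Folr2* followed these definitions, with log2 fold changes of 5.08 and -6.92. *Lgals3*, which encodes gal-3, was higher in MDMs than in SkMRMs (3.47). It was not lower in MDMs than in gal-3+ macrophages, though the panel gives MDMs little gal-3 protein. Its mean was 46239 normalized counts in MDMs and 43698 in gal-3+ macrophages (limma, adjusted p = 0.51). These genes of sorted proteins are no independent result.

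**Figure D2:**
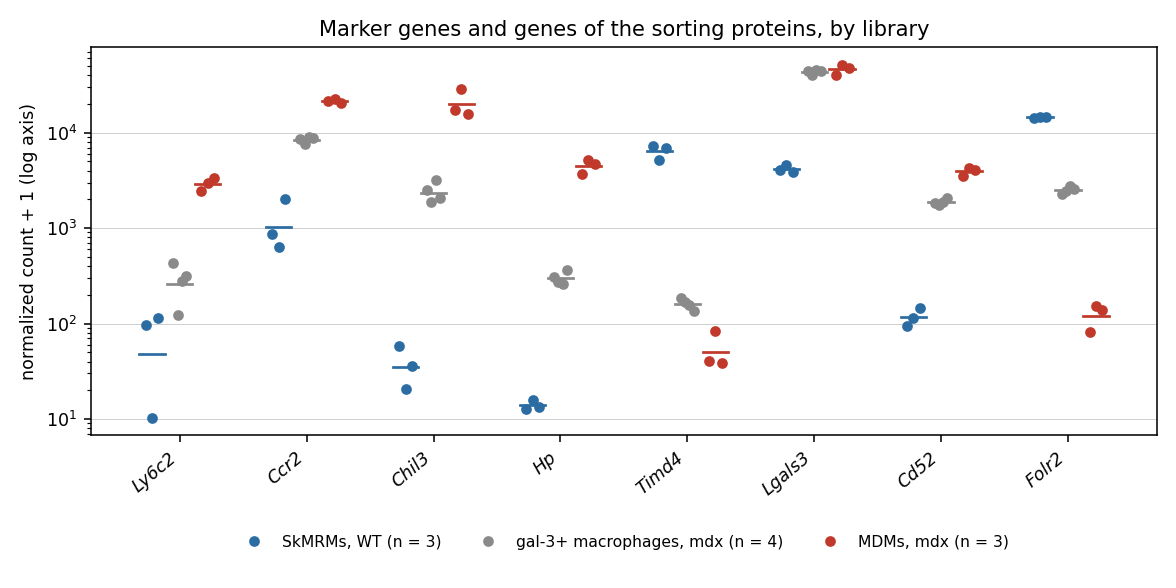
Normalized count plus 1 (log axis) of the marker genes and of *Lgals3*, *Cd52* and *Folr2* in every library, with points for libraries and short lines for the mean on the log scale (3 SkMRM, 4 gal-3+ and 3 MDM libraries). The 3 MDM libraries lie above the SkMRM libraries for *Ly6c2*, *Ccr2*, *Chil3*, *Hp*, *Lgals3* and *Cd52* and below them for *Timd4* and *Folr2*.

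On the log2 scale with 1 added, the largest rise in MDMs was that of a clotting factor. *F10* encodes coagulation factor X, which as factor Xa turns prothrombin into thrombin. It had 24.5, 4.66 and 46.6 normalized counts in SkMRMs against 14975, 19497 and 19414 in MDMs (log2 fold change 9.87 ± 0.47, adjusted p = 1.56e-11). Its neighbor *F7* encodes factor VII, which with tissue factor activates factor X. *F7* had 1.17, 6.21 and 12.6 in SkMRMs against 1581, 1477 and 1462 in MDMs (log2 fold change 7.98 ± 0.42, adjusted p = 5.20e-11). The largest rises were picked among genes without overlap between the groups, so the lack of overlap in both genes follows from that choice. Both lie on chromosome 8 of mm10 in the same direction, *F7* from 13026034 to 13035809 and *F10* from 13037308 to 13056676 (GENCODE M21), with 1498 bases between them.

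*Trem1*, an activating receptor that amplifies inflammation in monocytes and neutrophils, had 10.5, 3.88 and 1.805 in SkMRMs against 3701, 4700.1 and 5109.9 in MDMs (log2 fold change 9.69 ± 0.35). *Mmp8*, a collagenase stored in neutrophil granules and also made by monocytes, had 4.67, 0 and 0.36 in SkMRMs against 1143, 1488 and 1355 in MDMs (log2 fold change 9.39 ± 0.48). *Cd177*, a surface protein known from neutrophils, had 5.83, 0 and 0.72 in SkMRMs against 839.6, 1121 and 799.6 in MDMs. In each of the 3 genes the SkMRM libraries held at most 10.5 normalized counts and the MDM libraries at least 799.6. *Il1b*, which encodes the cytokine interleukin-1 beta, had 113, 95.5 and 339 in SkMRMs against 50987, 61001 and 75091 in MDMs (log2 fold change 8.63 ± 0.30). *Spp1*, which encodes osteopontin, had 234, 372 and 187 in SkMRMs against 87938, 174549 and 111607 in MDMs (log2 fold change 8.88 ± 0.22). The other genes among the 15 largest rises were the receptors *Tarm1*, *Cd300lf*, *Sirpb1c* and *Il7r*, at log2 fold changes of 8.81, 8.43, 9.10 and 7.85, the predicted gene *Gm9733* and *I830127L07Rik*, which is annotated as a transcribed pseudogene. *Gm9733* and *I830127L07Rik* were at 0 in all SkMRM libraries. Against a floor of 3 reads per library, *Gm9733* was at least 247-fold and *I830127L07Rik* at least 206-fold higher in MDMs. *Sirpb1c* belongs to a family of near-identical genes, whose reads can be split between members. *Gm9733* lies on chromosome 3 near *Sirpb1a*, of the same family, and *I830127L07Rik* on chromosome 15 near *Ly6c2*, and whether they share reads with other genes was not tested.

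Promoters of 4 of the strongly raised genes are shown as the sequence context of the rise, from RefSeq on GRCm38.p6 (the mm10 build), each 250 bases before to 50 bases after the annotated start. *F7* is at chr8:13025784-13026083 (+), *F10* at chr8:13037058-13037357 (+), *Trem1* at chr17:48232489-48232788 (+) and *Chil3* at chr3:106167515-106167814 (-). Capitals mark AGGAAGT or its reverse complement ACTTCCT, the core bound by PU.1 and related ETS factors of myeloid cells, searched on both strands. These letters were chosen after the sequences were seen, in place of the shorter variant GAGGAA considered first, because *Trem1* and *Chil3* hold them, so the matches given here are no evidence about the motif.
F7: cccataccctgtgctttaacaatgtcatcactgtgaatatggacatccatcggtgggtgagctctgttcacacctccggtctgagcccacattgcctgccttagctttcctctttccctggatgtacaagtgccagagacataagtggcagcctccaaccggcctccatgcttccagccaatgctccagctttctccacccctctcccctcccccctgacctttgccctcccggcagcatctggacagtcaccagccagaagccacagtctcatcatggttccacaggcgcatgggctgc
F10: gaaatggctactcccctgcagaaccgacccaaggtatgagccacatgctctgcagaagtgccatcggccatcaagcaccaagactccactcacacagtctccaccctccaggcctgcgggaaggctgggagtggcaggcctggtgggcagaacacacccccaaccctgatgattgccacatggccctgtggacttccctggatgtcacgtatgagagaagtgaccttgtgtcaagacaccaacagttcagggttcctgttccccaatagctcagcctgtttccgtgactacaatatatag
Trem1: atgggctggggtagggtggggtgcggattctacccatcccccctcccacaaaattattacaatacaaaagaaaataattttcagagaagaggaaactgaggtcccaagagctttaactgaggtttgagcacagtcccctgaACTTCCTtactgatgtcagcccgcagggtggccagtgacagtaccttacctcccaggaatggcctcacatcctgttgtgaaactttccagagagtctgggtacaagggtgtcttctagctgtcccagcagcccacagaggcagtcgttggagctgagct
Chil3: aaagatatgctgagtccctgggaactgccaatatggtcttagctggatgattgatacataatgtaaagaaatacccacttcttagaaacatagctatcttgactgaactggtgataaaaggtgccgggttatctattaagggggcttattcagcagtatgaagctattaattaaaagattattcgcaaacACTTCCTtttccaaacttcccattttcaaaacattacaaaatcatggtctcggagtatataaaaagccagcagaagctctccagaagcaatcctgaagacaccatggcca
The windows of *Trem1* and *Chil3* held 1 match each and those of *F7* and *F10* held 0, where 9.35% of the 32851 promoters in the RefSeq table held at least 1. A match is a run of letters and not a measured binding site.

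Several of the largest falls in MDMs were in genes of resident macrophages. After *Xist*, the largest was that of *Lyve1*, a hyaluronan receptor on resident macrophages along vessels and on lymphatic endothelium. It had 31952, 30426 and 34838 normalized counts in SkMRMs against 11.1, 5.103 and 14.1 in MDMs (log2 fold change -11.61 ± 0.27, adjusted p = 3.24e-15). *Cd163*, the receptor that takes up complexes of hemoglobin and haptoglobin, had 46741, 48611 and 36600.0 in SkMRMs against 123, 86.8 and 84.5 in MDMs (log2 fold change -8.80 ± 0.18). *Fcna*, which encodes the lectin ficolin A of the complement lectin pathway, had 10989, 11296 and 9816 in SkMRMs against 11.1, 3.83 and 39.9 in MDMs (log2 fold change -9.64 ± 0.49). For these 3 genes the SkMRM values lay close together and no MDM library held more than 123 normalized counts. *Cd209g*, *Pla2g2d*, *C6* and *Vsig4* were at 0 in all MDM libraries, and with the floor of 3 reads per library they were at least 343-, 292-, 201- and 178-fold lower. *Vsig4* encodes a complement receptor of resident macrophages, *C6* a component of the membrane attack complex and *Pla2g2d* a secreted phospholipase. *Cd209f* and *Cd209b*, C-type lectin receptors of the same family as *Cd209g*, fell, at log2 fold changes of -10.06 and -9.08.

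Other large falls were in genes of secreted and matrix proteins. *Angptl7*, a secreted protein of the angiopoietin-like family, had 8604, 5683 and 3751 in SkMRMs against 18.97, 7.66 and 0 in MDMs. *Chad*, a cartilage and tendon matrix protein, had 5864, 2791 and 2445 in SkMRMs against 1.58, 16.6 and 14.1 in MDMs. *Wif1*, an inhibitor of Wnt ligands, had 1762, 1149 and 879 in SkMRMs against 6.33, 0 and 4.697 in MDMs. In each of the 3 genes WT1 was the highest SkMRM library and WT3 the lowest. *Chad* is on the tenocyte and Schwann cell list, whose summed level, given below, had the same order. The part of other cells in these falls was not tested. Among the large falls were also *Enpep*, an aminopeptidase, and *Fxyd2*, a regulator of the sodium pump that is on the list of resident macrophage genes, at log2 fold changes of -8.38 and -8.74, and their SkMRM values varied little between libraries, at 5457, 5203 and 5304 for *Enpep* and 1825, 1809 and 1769 for *Fxyd2*.

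By the absolute difference in counts, *Gm26917* led on the higher side, with 4235919, 2283131 and 1626809.8 normalized counts in MDMs and 626685, 749033 and 662772 in SkMRMs, and MDM mdx1 far above the other libraries. *Gm42418*, named above with it, was also among the 10 largest differences. *Thbs1*, which encodes the matrix glycoprotein thrombospondin-1, had 11657, 7343 and 6298 normalized counts in SkMRMs against 417707, 500540.2 and 536999.5 in MDMs (log2 fold change 5.89 ± 0.18). *Fn1*, which encodes fibronectin, had 14886, 12069 and 10373 in SkMRMs against 298350.1, 376939 and 298108 in MDMs (log2 fold change 4.71 ± 0.13). *Actb*, *Psap*, *Lyz2*, *Fth1* and *Ctss* followed at log2 fold changes of 1.21, 2.14, 1.13, 1.87 and 1.95. They encode beta-actin, the lysosomal prosaposin, lysozyme, the ferritin heavy chain and cathepsin S. On the lower side, *Col1a1*, type I collagen, stood at 840622, 480155 and 328887 in SkMRMs against 24120.2, 26749 and 26979 in MDMs. *Mrc1*, the mannose receptor CD206, had 121319, 124705 and 133359.5 in SkMRMs against 21758, 16269 and 20733 in MDMs. *Sepp1*, the plasma selenium carrier selenoprotein P, had a log2 fold change of -2.68 and *F13a1*, the A subunit of clotting factor XIII, one of -1.86.

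Lists of genes were described by their counts and their median, and no set test was run. For all genes the shares were 8.81% higher and 18.0% lower with a median of -0.17. Of 27 monocyte identity genes, 22 rose and 2 fell, with a median log2 fold change of 2.60. The list holds *Cd52*, a gene of a sorted protein, and *Chil3* and *Hp*, which the study names for MDMs. It is therefore no independent list. *Plac8* had 332, 133 and 784 in SkMRMs against 3591, 4585 and 5180.4 in MDMs. *Thbs1*, *Fn1* and *Cd52* were also among the risers. The exceptions were *F13a1*, which classical monocytes and resident macrophages both express, and *Klf2*, a transcription factor, with 14529, 13874 and 21262 in SkMRMs against 3549.6, 4544 and 4229 in MDMs. Of 41 resident macrophage identity genes, 33 fell and 1 rose, with a median of -2.70. *Gas6*, a bridging ligand for dying cells, *Cbr2*, a carbonyl reductase, and *Folr2* fell, at log2 fold changes of -5.38, -5.68 and -6.92. The study names these genes for SkMRMs, and *Folr2* encodes a sorted protein, so they are no independent result. The riser was *Nr1h3*, the sterol-sensing nuclear receptor LXR alpha, with 159.8, 128 and 126 in SkMRMs against 898, 994 and 828 in MDMs. *Mertk*†, a dying-cell receptor, did not pass, at -0.35. Without both WT3 and MDM mdx1 the counts were 21 and 2 for the monocyte list and 1 and 33 for the resident list. Of 19 general macrophage genes, 7 rose and 0 fell, among them *Cd14*, the lipopolysaccharide co-receptor (2.13), and *Itgam*, the CD11b integrin chain (1.59). *Adgre1*, which encodes F4/80, had 13721, 13873 and 13919 in SkMRMs against 12869, 11264 and 11945 in MDMs, at a log2 fold change of -0.20 that did not pass and turned positive after centring.

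**Figure D3:**
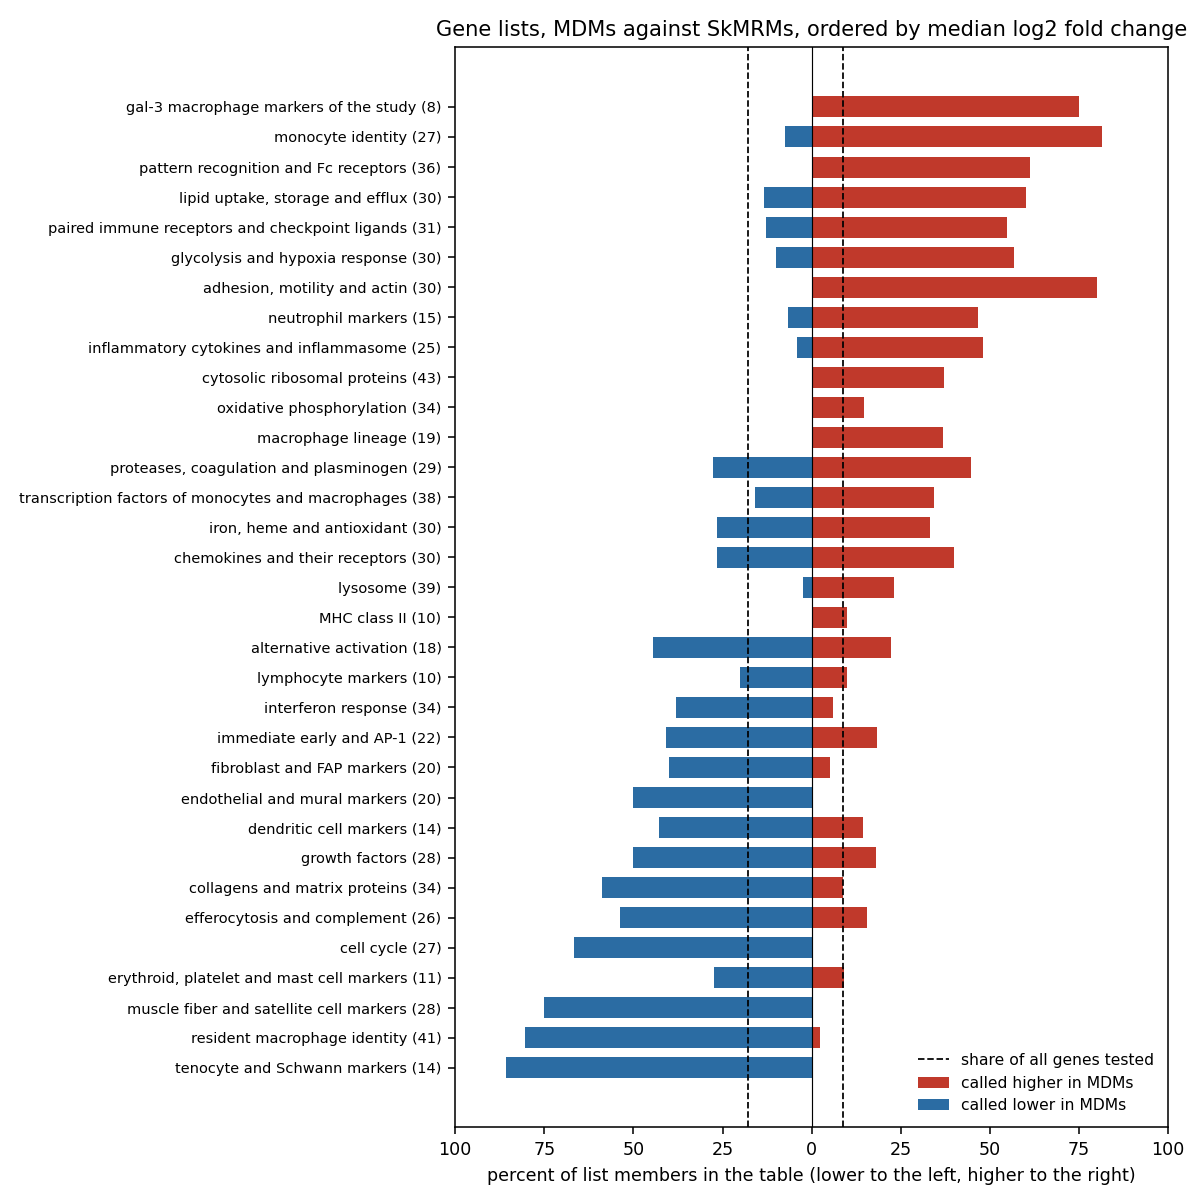
Percent of the members of each list called higher (right, red) or lower (left, blue) in MDMs against SkMRMs, with the number of members in the table in parentheses and lists ordered by median log2 fold change. Dashed lines mark the shares over all 17001 genes (8.81% higher and 18.0% lower); the monocyte list reaches 81.5% higher and the resident macrophage list 80.5% lower.

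Inflammatory mediators rose in part. Of 25 cytokine and inflammasome genes, 12 rose and 1 fell, with a median of 0.96. Without MDM mdx1, or without both it and WT3, 13 rose and 2 fell. *Mefv*, which encodes pyrin, a sensor of inflammasomes, had 100.3, 95.5 and 162 in SkMRMs against 5994, 5571 and 6918 in MDMs (log2 fold change 5.71 ± 0.16, adjusted p = 1.86e-14). *Ptgs2*, the prostaglandin synthase COX-2, had 920.3, 805 and 772 in SkMRMs against 31050.3, 36849 and 46909.9 in MDMs (log2 fold change 5.50 ± 0.12, adjusted p = 1.84e-15). Ligands of the interleukin-1 family rose with their antagonists. *Il1a* had 1129, 907 and 727 in SkMRMs against 9335, 10311 and 11490.3 in MDMs. The receptor antagonist *Il1rn* had 1065, 1080.2 and 2102 in SkMRMs against 16025, 24540.1 and 25786 in MDMs. The decoy receptor *Il1r2* had 46.7, 13.98 and 25.99 in SkMRMs against 583, 512 and 611 in MDMs. *Casp4*, the caspase that senses intracellular lipopolysaccharide, fell from 4119, 4619.6 and 6282 to 2424, 1836 and 2191 (log2 fold change -1.20 ± 0.16). *Tnf*†, *Il6*† and *Nos2*†, often used as markers of inflammatory activation, did not pass, at log2 fold changes of 0.38, 0.96 and -0.48. *Il6*† had 1527, 1673 and 1002 in SkMRMs against 2217, 2675 and 3171 in MDMs, with no overlap, but under the fold required. Without WT1, WT2 or MDM mdx1 its log2 fold change was 1.04, 1.10 and 1.09, which passed.

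Receptors of pattern recognition rose broadly. Of 36 pattern recognition and Fc receptor genes, 22 rose and 0 fell, with a median of 1.58. *Clec4e*, which encodes Mincle, a receptor for dead-cell and mycobacterial ligands, had 279, 299.7 and 327 in SkMRMs against 21388, 23258 and 28569.6 in MDMs (log2 fold change 6.32 ± 0.12, adjusted p = 4.61e-16). *Fpr1*, a receptor for formylated peptides of bacteria and mitochondria, had 5.83, 1.55 and 40.8 in SkMRMs against 286, 307 and 345 in MDMs. *Trem3* had 0, 0 and 0.72 in SkMRMs against 133, 179.9 and 176 in MDMs. Of 31 paired immune receptors and checkpoint ligands, 17 rose and 4 fell. *Sirpb1a* and *Sirpb1b* rose with log2 fold changes of 7.43 and 7.38, with the same limit as *Sirpb1c*. The fallers were *Cd86*, *Cd40*, *Cd33* and *Mrc1*, where *Cd86* and *Cd40* encode co-stimulators of T cells. *Cd40* was at -1.01, and at -0.94, -0.92 and -0.87 without WT1, WT3 or MDM mdx1 it was under the fold required. *Cd86* had 8562, 9538 and 10716 in SkMRMs against 4704, 3931 and 4084 in MDMs.

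Chemokine genes split by member. Of 30 genes, 12 rose and 8 fell, with a median of 0.40. *Cxcl3*, a ligand that attracts neutrophils, had 205, 327 and 151 in SkMRMs against 3989, 6318 and 6946 in MDMs. The atypical receptor *Ccrl2* had 2343, 2988 and 2226 in SkMRMs against 15609, 17560.2 and 20126 in MDMs. *Ccl8* and *Ccl12*, ligands that attract monocytes and other leukocytes, went the other way. *Ccl8* had 4058, 4340.1 and 3547 in SkMRMs against 17.4, 25.5 and 29.4 in MDMs (log2 fold change -7.34 ± 0.19). *Ccl12* had 4971, 4495 and 4531 in SkMRMs against 561, 629 and 898 in MDMs (log2 fold change -2.77 ± 0.13). *Pf4*, a chemokine of platelets and of resident macrophages, had 16869.9, 17526 and 19759 in SkMRMs against 2441, 2119 and 2824 in MDMs. *Cx3cr1*, the fractalkine receptor, had 1080.1, 905 and 1136 in SkMRMs against 3901, 4645 and 3591 in MDMs (log2 fold change 1.96 ± 0.14). *Ccl2*†, the main ligand of Ccr2, did not pass at a log2 fold change of 0.07.

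Coagulation, protease and matrix genes moved both ways. Of 29 protease, coagulation and plasminogen genes, 13 rose and 8 fell. *F10*, *F7*, *Thbs1* and *F5*† (4.36), the cofactor of factor X, were higher in MDMs, while *F13a1*, which cross-links fibrin, and *Tfpi*†, the inhibitor of the tissue factor pathway (-1.15), were lower. *F13a1* had 119733, 121863 and 123632 in SkMRMs against 30435, 39112 and 31935 in MDMs. *F3*†, which encodes tissue factor, did not pass (0.66). *Adam8*, a membrane protease of leukocytes, had 304, 335 and 340.4 in SkMRMs against 13183, 16232 and 17769.7 in MDMs (log2 fold change 5.58 ± 0.11, adjusted p = 4.61e-16). *Serpinb10*, annotated as a polymorphic pseudogene, had 11.7, 3.11 and 51.98 in SkMRMs against 496, 625 and 519 in MDMs. *Mmp9*, the gelatinase of neutrophils and osteoclasts, had 2715, 2242 and 2651 in SkMRMs against 218, 324 and 432 in MDMs (log2 fold change -3.01 ± 0.41). The collagenase *Mmp8* and the gelatinase *Mmp9* thus stood apart in direction.

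**Figure D4:**
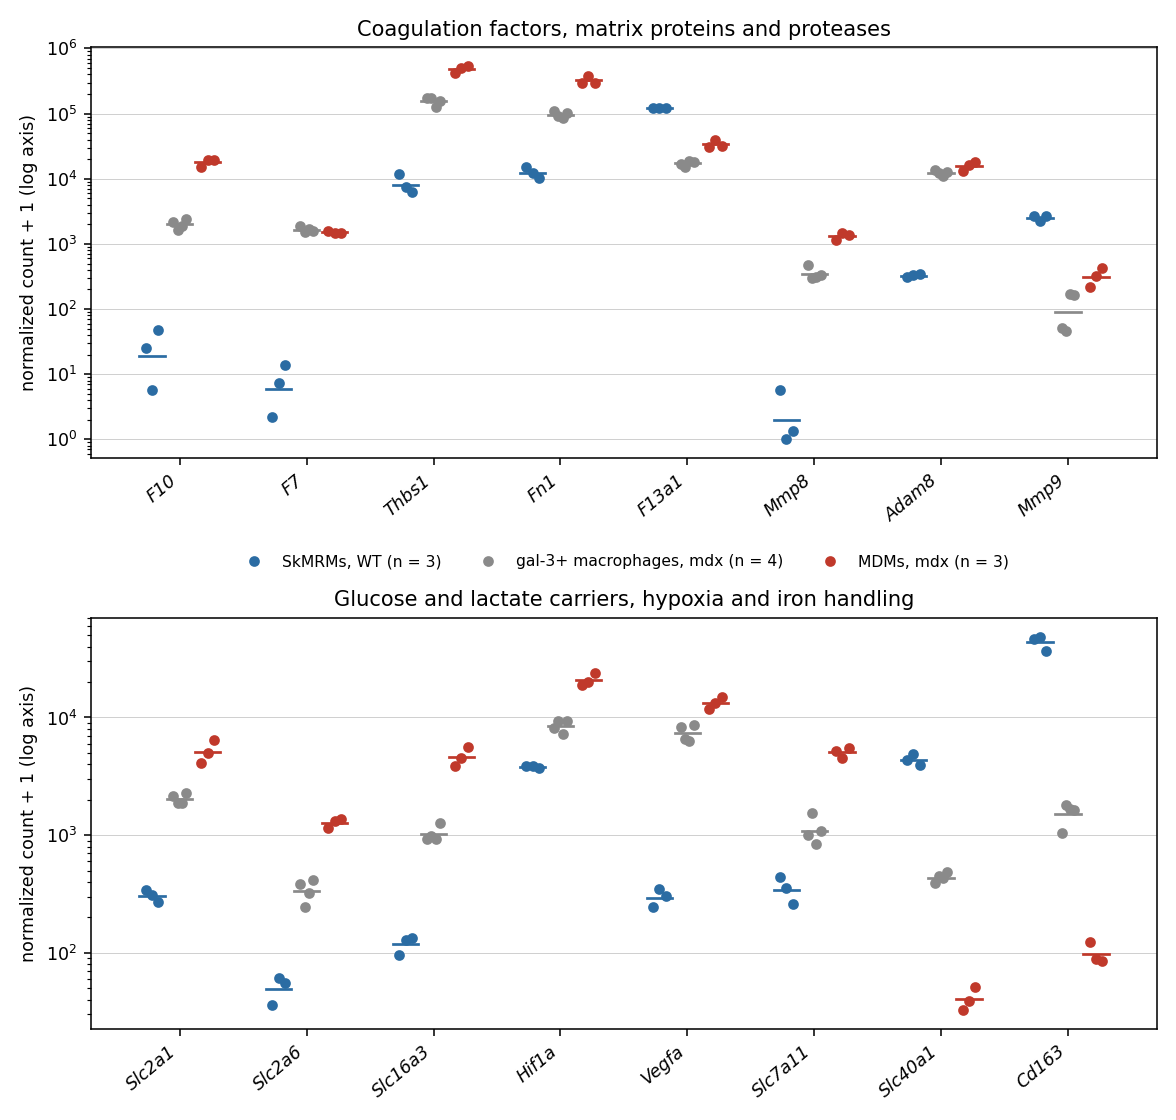
Normalized count plus 1 (log axis) per library for coagulation factors, matrix proteins and proteases (top) and for carriers of glucose and lactate, hypoxia genes and iron-handling genes (bottom), with points for libraries and lines for the mean on the log scale in 3 SkMRM, 4 gal-3+ and 3 MDM libraries. *F10*, *F7* and *Mmp8* sit near 0 to 50 in SkMRMs and between 1143 and 19497 in MDMs, whereas *F13a1*, *Mmp9*, *Slc40a1* and *Cd163* are lower in all MDM libraries than in all SkMRM libraries.

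Of 34 collagen and matrix genes, 3 rose (8.82%, near the 8.81% over all genes) and 20 fell (58.8%), with a median of -1.19. The risers were *Fn1*, *Spp1* and *Thbs1*. *Fmod*, which encodes fibromodulin, a small proteoglycan of tendon, had 46969, 26209 and 22436 in SkMRMs against 194, 209 and 151 in MDMs. *Comp*, cartilage oligomeric matrix protein, had 4773, 2838 and 2049 in SkMRMs against 66.4, 62.5 and 46.97 in MDMs. *Col3a1*, an abundant collagen, had 47092, 39018 and 36028 in SkMRMs against 32410.0, 36123 and 36815 in MDMs, at a log2 fold change of -0.21 that did not pass and that turned positive after centring. Markers of tenocytes and fibroblasts moved in the same libraries. The summed level of the tenocyte and Schwann cell list was 111454, 70113 and 58258 in SkMRMs and 6916, 8312 and 8765 in MDMs, highest in WT1 like *Col1a1*, *Fmod* and *Comp*. The part of other cells in these differences was not tested, and in bulk RNA fewer cells of a type and less RNA per cell cannot be told apart.

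Genes of sugar use and hypoxia were mostly higher. Of 30 glycolysis and hypoxia response genes, 17 rose and 3 fell, with a median of 1.25. *Slc2a1*, the glucose transporter GLUT1, had 338, 307 and 269.6 in SkMRMs against 4139, 4996 and 6493 in MDMs (log2 fold change 4.07 ± 0.14, adjusted p = 2.87e-13). *Slc16a3*, the lactate exporter MCT4, had 95.6, 127 and 134 in SkMRMs against 3882, 4523 and 5556 in MDMs (log2 fold change 5.28 ± 0.16, adjusted p = 6.03e-14). *Slc2a6* and *Vegfa*, a glucose transporter family member and the vascular growth factor, had log2 fold changes of 4.69 and 5.49. MDM mdx1 was the lowest and mdx5 the highest MDM library for *Slc2a1*, *Slc16a3*, *Slc2a6* and *Vegfa*, and every MDM library stood above every SkMRM library. Along the glycolytic chain, *Pfkl*†, *Aldoa*†, *Tpi1*†, *Gapdh*†, *Pgk1*†, *Pgam1*†, *Eno1*†, *Pkm*† and *Ldha*† rose, at 1.63, 1.10, 1.41, 1.55, 1.93, 2.74, 2.06, 2.10 and 1.94. Its first enzymes, the hexokinases *Hk1*†, *Hk2*† and *Hk3*†, did not pass, at -0.14, 0.19 and 0.02. *Hif1a*, the oxygen-regulated transcription factor, had 3838, 3901 and 3694 in SkMRMs against 18823, 19862 and 23857 in MDMs (log2 fold change 2.44 ± 0.10). *Adm*, *Pfkm* and *Pfkfb3* fell. *Adm*, which encodes adrenomedullin and is itself a hypoxia target, had 216, 240.0 and 144 in SkMRMs against 9.49, 3.83 and 24.7 in MDMs.

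Ribosomal and mitochondrial genes shifted by less. Of 43 cytosolic ribosomal protein genes, 16 rose and 0 fell, the median was 0.92, and all 43 were positive with no overlap between the groups. Among all 17001 genes, 5016 were higher and 5936 lower in MDMs with no overlap. The count rested on the scaling and on single libraries. It was 5 to 42 over the alternatives and 22 without MDM mdx1, the library with the most ribosomal RNA-like reads, while the median stayed between 0.76 and 1.25. Of 34 oxidative phosphorylation genes, 5 rose and 0 fell, with a median of 0.75 and a count of 1 to 22 over the alternatives. *Rplp0*, a ribosomal stalk protein, had 11037, 11141 and 10801 in SkMRMs against 21975, 29571 and 27083 in MDMs. *Cycs*, cytochrome c, had 1032, 1001 and 1396 in SkMRMs against 2655, 2947 and 3329.9 in MDMs. Of 30 adhesion, motility and actin genes, 24 rose and 0 fell, with a median of 1.21. *Fgr*, a myeloid Src family kinase, had 55.99, 47.4 and 92.04 in SkMRMs against 5841, 6291 and 6029 in MDMs (log2 fold change 6.57 ± 0.17). *Itgal*, the alpha chain of the integrin LFA-1, had 314, 181 and 138 in SkMRMs against 4584, 5861 and 5564 in MDMs (log2 fold change 4.73 ± 0.21). *Cytip*, a regulator of integrin adhesion, and *Itgb7*, an integrin beta chain, followed at log2 fold changes of 5.67 and 4.17.

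Lipid genes were mostly higher. Of 30 lipid uptake, storage and efflux genes, 18 rose and 4 fell, with a median of 1.47. *Olr1*, the receptor LOX-1 for oxidized lipoprotein, had 40.8, 88.5 and 26.7 in SkMRMs against 5352, 5148 and 6043 in MDMs (log2 fold change 6.87 ± 0.27, adjusted p = 1.60e-12). *Apoc2*, the apolipoprotein that activates lipoprotein lipase, had 4.67, 21.7 and 20.9 in SkMRMs against 2773, 2933 and 2899 in MDMs. *Gpnmb*, a membrane protein known from foam cells and osteoclasts, had 295, 265 and 194 in SkMRMs against 39143, 48867 and 37996 in MDMs. The fallers were *Abca1*, *Pltp*, *Mgll* and *Ch25h*. *Abca1*, the cholesterol exporter, had 25202, 26356 and 27465 in SkMRMs against 14327, 9628 and 13886 in MDMs, with a log2 fold change of -1.08 that was -0.90 without MDM mdx4 and then under the fold required. *Pltp*, the phospholipid transfer protein, had 30635, 32153 and 25644 in SkMRMs against 2218, 1648 and 1495 in MDMs (log2 fold change -4.06 ± 0.13). *Abca1* is known as a target of LXR alpha, whose gene *Nr1h3* was higher in the same libraries. Of 39 lysosome genes, 9 rose, among them *Ctsd*, cathepsin D (2.07). The 1 that fell was *Ctsf*, cathepsin F, which had 1049.8, 1179.6 and 741 in SkMRMs against 36.4, 43.4 and 48.1 in MDMs. Of 8 markers that the study chose for gal-3+ macrophages, which are no independent list, 6 were higher in MDMs, with *Fabp5*, a fatty acid carrier, at 6.12 and *Trem2*, a lipid receptor, at 1.92. Set against gal-3+ macrophages, 0 of the 8 were higher in MDMs and 3 were lower. Over all genes, 3.32% were higher and 8.19% lower in that comparison. Of 10 MHC class II genes, 1 rose (10%, near the 8.81% over all genes) and 0 fell. There were 2 risers without WT2, WT3, MDM mdx4 or MDM mdx5, and the median of 0.03 changed sign over the alternatives.

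Iron and heme genes moved both ways. Of 30 iron, heme and antioxidant genes, 10 rose and 8 fell. *Slc40a1*, which encodes ferroportin, the iron exporter, had 4324, 4881 and 3931 in SkMRMs against 31.6, 38.3 and 50.5 in MDMs (log2 fold change -6.75 ± 0.18, adjusted p = 7.11e-15). *Cd163* and the heme-degrading *Hmox1*† and *Blvrb*† were also lower, the last at -1.61 and -1.80. *Fth1*, which stores iron, had 36602, 41574 and 35534 in SkMRMs against 131332, 135272 and 148428 in MDMs, and *Hp* was higher as given above. *Slc7a11*, the cystine importer that feeds glutathione synthesis, had 443, 352 and 256 in SkMRMs against 5213, 4506 and 5467 in MDMs (log2 fold change 3.88 ± 0.20). *Gsr*, glutathione reductase, had 779, 855 and 544 in SkMRMs against 4014, 5381 and 4827 in MDMs. The antioxidant *Prdx5* rose (2.60) and the metallothionein *Mt2* fell (-2.69). *Hpx*, the heme carrier hemopexin, was called lower at no more than 15.2 normalized counts in any library, and lost the call without any 1 of the 6 libraries, at log2 fold changes of -3.33 to -2.65.

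Markers of alternative activation did not move as a block. Of 18 genes, 4 rose and 8 fell, with a median of -0.26 that turned to 0.08 after centring. *Arg1*, the arginase of alternatively activated and tumor macrophages, had 15.2, 19.4 and 102 in SkMRMs against 7793, 6611 and 7429 in MDMs (log2 fold change 7.81 ± 0.44). *Chil3*, *Tgm2* and *Pdcd1lg2* rose with it. *Retnla*, which encodes RELM alpha, had 11769, 10833 and 15845 in SkMRMs against 212, 95.7 and 83.4 in MDMs (log2 fold change -6.72 ± 0.26). *Mgl2*, the lectin CD301b, had 11241, 10943 and 12743 in SkMRMs against 147, 72.7 and 81.02 in MDMs (log2 fold change -6.91 ± 0.20). Of 26 efferocytosis and complement genes, 14 fell and 4 rose. *C4b*, complement component C4, had 23148, 23309 and 21701 in SkMRMs against 360.5, 473 and 511 in MDMs. *C3*, the central complement component, went the other way, with 1884, 794 and 1049 in SkMRMs against 12583, 17200.4 and 16654 in MDMs (log2 fold change 3.72 ± 0.22). *Axl*, *Itgav* and *Itgb5*, a dying-cell receptor and the chains of an integrin that binds apoptotic cells, rose too (1.57, 2.46 and 2.31).

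Growth factors fell more often than they rose. Of 28 genes, 14 fell and 5 rose, with a median of -0.996. *Bmp2*, a bone morphogenetic protein, had 2093, 2155 and 2128 in SkMRMs against 28.5, 81.7 and 116 in MDMs. *Pdgfc*, a platelet-derived growth factor, had 1627, 1715 and 1538 in SkMRMs against 104, 86.8 and 76.3 in MDMs. *Igfbp4*, a binder of insulin-like growth factors, had 21325, 19198 and 18367 in SkMRMs against 1581, 1336 and 1544 in MDMs. All 3 were at least 10-fold lower in every MDM library than in any SkMRM library. The risers were *Vegfa*, *Nrg1*, *Inhba*, *Hgf* and *Gdf3*. *Nrg1*, the ErbB ligand neuregulin-1, had 3.499, 8.54 and 11.9 in SkMRMs against 1197, 1119 and 1234 in MDMs (log2 fold change 7.17 ± 0.32). *Hgf*, hepatocyte growth factor, an activator of satellite cells in muscle, had 173, 204 and 277 in SkMRMs against 2119, 1786 and 1931 in MDMs. *Inhba*, the activin A subunit, had 90.98, 95.5 and 65.7 in SkMRMs against 645, 954 and 793 in MDMs. *Gdf3*, a growth factor of repair macrophages in muscle, had 3.499, 3.88 and 0.72 in SkMRMs against 15.8, 76.5 and 93.9 in MDMs, with MDM mdx1 far below the other MDM libraries.

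Transcription factors of monocytes and macrophages were more often higher than lower. Of 38 genes, 13 rose and 6 fell (15.8%, below the 18.0% over all genes), and after centring 19 were higher and 3 lower. *Runx3*, a Runt family transcription factor of leukocytes, had 146, 203 and 201 in SkMRMs against 4829, 5551 and 5935 in MDMs (log2 fold change 4.89 ± 0.12). *Pparg*, a lipid-sensing nuclear receptor, had 148, 182 and 186 in SkMRMs against 1368, 1569 and 1312 in MDMs. *Maf*, a factor of resident macrophages, had 21344, 22227 and 21691 in SkMRMs against 9607, 8926 and 8373 in MDMs (log2 fold change -1.28 ± 0.09). *Klf4* had 31635, 30349.6 and 34622 in SkMRMs against 13836, 17037 and 15614 in MDMs (log2 fold change -1.06 ± 0.08, and -0.98 without MDM mdx1). Of 22 immediate early and AP-1 genes, 9 fell and 4 rose. *Jun*, *Egr1* and *Fosb* fell, at log2 fold changes of -2.35, -2.82 and -1.60, where *Egr1* had 67971, 80086 and 81894 in SkMRMs against 10793, 10721 and 10911 in MDMs. The orphan receptors *Nr4a1*, *Nr4a2* and *Nr4a3* rose, at log2 fold changes of 3.24, 3.11 and 3.05, where *Nr4a1* had 2937, 2575 and 4341 in SkMRMs against 26456, 31956 and 32657 in MDMs. Such genes also answer to the digestion and sorting of tissue, and the part of handling was not tested.

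Interferon and cell cycle genes were more often lower than higher. Of 34 interferon response genes, 13 fell and 2 rose, with a median of -0.48. Without both WT3 and MDM mdx1, 11 fell and 4 rose, and without WT1, WT2, MDM mdx4 or MDM mdx5 only 1 rose. *Mx2* had 3521, 3067 and 2692 in SkMRMs against 580.3, 404 and 535 in MDMs. It belongs to a family of antiviral GTPases and is annotated as a polymorphic pseudogene. *Oasl1* had 18785, 18487 and 15128 in SkMRMs against 3267, 2976 and 4665 in MDMs. *Ifit1* had 9222, 8902 and 4536 in SkMRMs against 1350.3, 1423 and 1733 in MDMs. The risers were *Ifi205* (1.96), of a family of close paralogs, and *Oas3* (1.13), whose values overlapped between the groups. *Oas3* was at 1.20, 0.63, 1.12 and 0.95 without WT1, WT2, MDM mdx4 or MDM mdx5 and did not pass. Of 27 cell cycle genes, 18 fell and 0 rose, with a median of -1.47. *Stmn1*, a regulator of microtubules during division, had 2224, 2569.6 and 2483 in SkMRMs against 376, 297 and 326 in MDMs (log2 fold change -2.86 ± 0.14). *Ccnb2*, a mitotic cyclin, had 479, 645 and 571 in SkMRMs against 91.7, 70.2 and 45.8 in MDMs (log2 fold change -3.06 ± 0.27). *Birc5* and *Aurkb*, mitotic regulators, fell, at log2 fold changes of -2.65 and -2.57. The count of 18 was 16 to 18 over the alternatives.

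Markers of other cells were measured in the same libraries. Of 28 muscle fiber and satellite cell genes, 21 were lower in MDMs and 0 higher, and their summed level was 27603, 28501 and 39924 in SkMRMs and 8541, 8288 and 8100.5 in MDMs. *Acta1*, skeletal actin, had 3393, 3791 and 5454 in SkMRMs against 659, 639 and 492 in MDMs. *Dmd*, the gene mutated in mdx mice, had 407, 386 and 384 in SkMRMs against 80.6, 20.4 and 16.4 in MDMs. The mdx mutation is a point mutation within *Dmd*, and muscle fibers also express the gene. The part of the mutation and of fiber RNA in its level was not tested. Of 20 fibroblast and fibro/adipogenic progenitor genes, 8 were lower, 1, *Pi16*, was higher and 11 were not called. Their summed level was 945260.5, 559811 and 406755 in SkMRMs and 77022, 86501 and 85319 in MDMs. Most of each SkMRM sum was *Col1a1* alone, with 840622, 480155 and 328887, so the sums mainly follow that gene. *Dcn*, decorin, had 13948, 8543 and 8529 in SkMRMs against 1217, 1063 and 1315 in MDMs. *Pi16*, a marker of adventitial progenitors, had 174, 80.8 and 141 in SkMRMs against 534, 869 and 629 in MDMs. Of 20 endothelial and mural genes, 10 were lower and 0 higher, 13 without WT3, the library with the lowest sum (33003, 29981 and 13258 in SkMRMs and 15013, 14826 and 15918 in MDMs). *Vwf* had 2818, 2603 and 775 in SkMRMs against 2571, 2686 and 2749 in MDMs, at a log2 fold change of 0.58 that turned to -0.02 without WT3. The part of these cells in the differences above was not tested.

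Of 15 neutrophil genes, 7 were higher in MDMs and 1, *Mmp9*, was lower, and the summed level was 3853, 3036 and 3929 in SkMRMs and 7504, 8797 and 8724 in MDMs. *S100a8*, a calprotectin subunit, had 31.5, 6.21 and 3.61 in SkMRMs against 218, 214 and 154 in MDMs. *Lcn2*, lipocalin-2, had 6.999, 23.3 and 17.3 in SkMRMs against 155, 283 and 234 in MDMs. *Csf3r*, the receptor of the granulocyte growth factor, had 446, 404 and 452 in SkMRMs against 3611, 3955 and 3998 in MDMs. *Camp*†, *Ngp*†, *Ltf*† and *Mpo*†, granule genes transcribed mainly in granulocyte precursors of the marrow and little in mature neutrophils, were not called higher, with log2 fold changes of -0.69, -2.53, -1.05 and -1.08. *Ngp*† had 135, 43.5 and 45.1 in SkMRMs against 4.74, 7.66 and 28.2 in MDMs, and *Camp*† had 19.8, 0 and 3.25 in SkMRMs against 0, 0 and 19.96 in MDMs. The part of neutrophils in these differences was not tested. Of 14 dendritic cell genes, 6 were lower (42.9%) and 2 higher (14.3%), against 18.0% and 8.81% over all genes, with 4 higher without WT1. *Itgax*, the CD11c integrin chain, had 32.7, 54.4 and 97.1 in SkMRMs against 1513, 1234 and 949.9 in MDMs. *Siglech*, a plasmacytoid dendritic cell receptor, had 755, 490.0 and 727 in SkMRMs against 4.74, 12.8 and 54.01 in MDMs. Of 10 lymphocyte genes, 2 were lower (20%) and 1, *Il7r*, higher (10%), near the shares over all genes. *Il7r*, the interleukin-7 receptor chain, had 27.99, 12.4 and 16.6 in SkMRMs against 4469.9, 4382 and 4286 in MDMs, and stood among the largest rises. The immunoglobulin chain *Ighm* and the co-receptor *Cd4* fell, at -2.34 and -2.20. Among 11 erythroid, platelet and mast cell genes, 3 were lower (27.3%) and 1 higher (9.09%, near the share over all genes). Without 1 library, 1 to 5 were lower, with 1 without WT1 or MDM mdx4 and 5 without MDM mdx1 (also without both it and WT3), and 0 were higher without WT2, WT3, MDM mdx1 or MDM mdx5. The mast cell genes *Cma1* and *Cpa3* did not pass. They had 101.2, 1.276 and 31.7 for *Cma1* and 199, 0 and 15.3 for *Cpa3* in MDMs, and mdx1 was the highest MDM library for both. Without MDM mdx1 both were called lower, at -4.33 for *Cma1* and -5.03 for *Cpa3*.

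**Figure D5:**
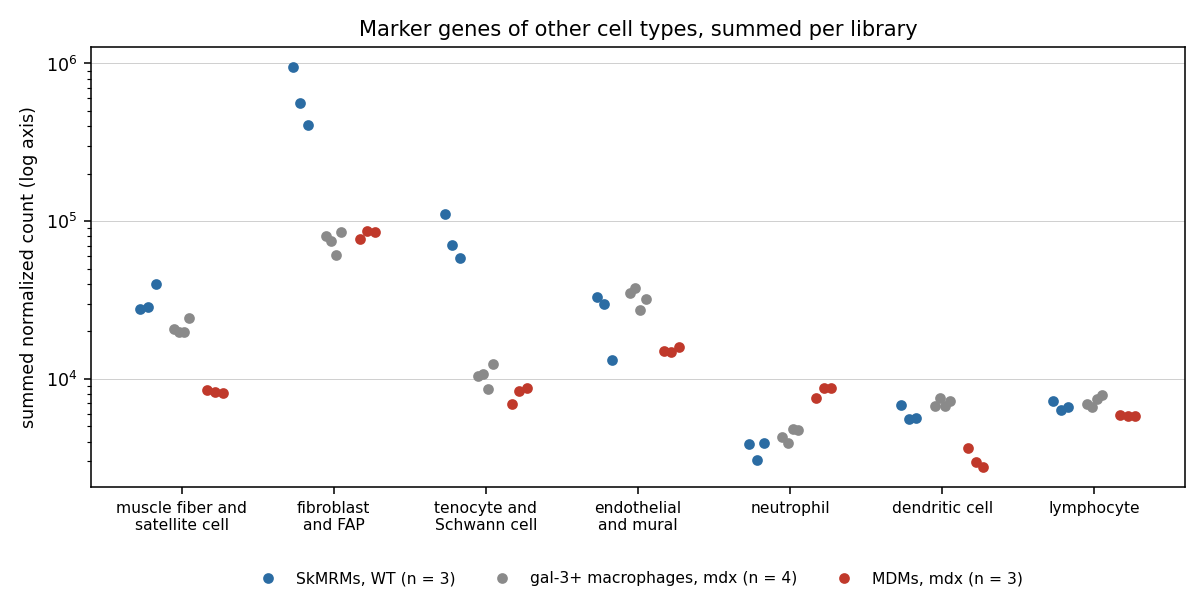
Normalized counts summed over the marker genes of other cell types (log axis), 1 point per library, in 3 SkMRM, 4 gal-3+ and 3 MDM libraries. The sums of the muscle, fibroblast and tenocyte lists are highest in the SkMRM libraries, where most of the fibroblast sum is *Col1a1*. The sum of the neutrophil list is highest in the MDM libraries, and the endothelial sum of WT3 lies near those of the MDMs.

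Gal-3+ macrophages come from the same dystrophic muscle, and their levels were set beside those of MDMs gene by gene. Against gal-3+ macrophages, 564 genes were higher in MDMs (3.32%) and 1392 lower (8.19%). Of the 1498 genes called higher in MDMs than in SkMRMs, 274 were also called higher than in gal-3+ macrophages. The comparisons share the MDM libraries, and neither is independent of the other. Values of gal-3+ macrophages are means ± SD with n = 4, and log2 fold changes in this paragraph and the next are MDMs minus gal-3+ macrophages. *F10* had 2013 ± 321 normalized counts in gal-3+ macrophages, below the MDM level (log2 fold change 3.16 ± 0.44, adjusted p = 2.72e-05). *Clec4e* had 3901 ± 561 (log2 fold change 2.65 ± 0.11, adjusted p = 3.75e-11). *F7*, the neighbor of *F10*, had 1664 ± 144 and did not pass (log2 fold change -0.14 ± 0.39, adjusted p = 0.803). *Spp1* had 127705 ± 17072 and did not pass either (log2 fold change -0.08 ± 0.21, adjusted p = 0.777). Both clotting factors were above SkMRMs in both mdx populations, but *F10* was called higher in MDMs in this comparison and *F7* was not.

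*Plac8* was high in MDMs and low in both other populations, with 244 ± 71.9 in gal-3+ macrophages. *C3* (1855 ± 241), *Inhba* (129 ± 40.9) and *Serpinb10* (19.7 ± 2.95) were likewise called higher in MDMs than in either. *Hif1a* had 8538 ± 989 and *Slc2a1* 2048 ± 213, between the levels of SkMRMs and MDMs. *Atp6v0d2*, a subunit of the proton pump, and *Itgax* were highest in gal-3+ macrophages, with 8954 ± 992 and 4677 ± 208, and MDMs lay between the populations. *Cx3cr1* was likewise highest in gal-3+ macrophages, with 9229 ± 1666, and was called lower in MDMs (log2 fold change -1.18 ± 0.13). *F13a1* had 17202 ± 1598, the lowest mean of the 3 populations, and its difference from MDMs was just under the fold required (log2 fold change 0.97 ± 0.09, adjusted p = 4.74e-07). *Sepp1* had 129489 ± 19033 in gal-3+ macrophages against 28443, 21538 and 21149 in MDMs and 152179, 157609 and 141098 in SkMRMs. *Pltp* had 17716 ± 2022, and both were called lower in MDMs than in either. *Stmn1* had 1393 ± 255, and of the 27 cell cycle genes 16 were lower in MDMs when set against gal-3+ macrophages, with 0 higher. Of 10 MHC class II genes, 6 were lower in MDMs by the same comparison and 0 higher, whereas 1 was higher than in SkMRMs.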

How the data were processed

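RNA of FACS-sorted macrophages from mouse hindlimb muscle was sequenced from 2 ng of total RNA with a stranded, ribosomal RNA-depleting low-input kit (SMARTer Pico). The authors aligned reads to mm10 with TopHat2 2.0.14, obtained gene counts with HTSeq 1.99.2 on GENCODE M9 and divided these by the size factors of DESeq2 1.28.1, so the deposited values are a normalized signal per gene and library. Whether HTSeq used strand is not given in the sources used here, so overlapping genes, antisense genes and close paralogs are uncertain. The table also holds the authors' fold changes and p-values for pairs of populations, which were not used. It holds 17001 genes, 22 of which carry dates in place of their names.

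All values were whole multiples of 1 step per library within 0.001, so whole reads were recovered for count tests as an alternative. These total 22395027 to 75907638 per library. Groups came from the sample titles. limma 3.58.1 (R 4.3.3) was fitted to log2 of the normalized count plus 1 over all 10 libraries with a mean-variance trend, with Benjamini-Hochberg adjustment over 17001 genes. The study's thresholds were used, a change of 2-fold or more with an adjusted p below 0.01. A minimum of 10 in 3 libraries removed 0 genes. Count tests in edgeR 4.0.16 and DESeq2 1.42.0, TMM, upper quartile and median scaling, other pseudocounts, minimums and thresholds, a replicate block and leaving out each library were alternatives. The fit was also run on simulated data in which few genes were changed, as many up as down. That setting differs from these data and does not test the balance of rises and falls. Floors are 3 reads per library and cover counting error only.

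The 6 libraries, the gene lists and the tests were chosen with earlier results of these data known. Named genes were the 5 markers, genes the study names, the 15 largest rises and 15 largest falls (called, not overlapping, mean of 100 normalized counts or more), the 10 largest differences in count each way, up to 6 members per list by size of change, abundant members of lists of other cells and members called against their list's majority. A few genes chosen in this way are left out of the text. Genes marked † were chosen after their values were seen. Promoters are from RefSeq (GRCm38.p6) and gene positions from GENCODE M21.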

Additional observations from a re-analysis of the deposited data

How the results depend on the processing

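Counts of called genes were recomputed with another pseudocount, minimum, scaling, tool, threshold or set of libraries. Among 17001 genes, the 1498 higher and 3064 lower in MDMs than in SkMRMs stayed within 1.5 times in 18 of 20 alternatives for higher genes and in all 20 for lower genes. After centring each library on its median 2865 were higher, and with no minimum fold 3793 were higher. Against gal-3+ macrophages, 945 genes were higher after centring and 938 at an adjusted p under 0.05, and with no minimum fold 2212 were higher and 2460 lower. Leaving out 1 of the libraries compared gave 1372 to 1532 higher and 2478 to 2962 lower against SkMRMs and 409 to 645 and 1222 to 1356 against gal-3+ macrophages. Without 1 gal-3+ library, 1480 to 1510 were higher and 2993 to 3119 lower against SkMRMs. edgeR called 1532 and 2739 genes against SkMRMs and DESeq2 1557 and 3169. Of the 1498 and 3064 genes, 1464 and 2720 were shared with edgeR. After centring, *Abca1*, *Casp4*, *Cd40*, *Cd86*, *Klf4*, *Maf*, *Pfkfb3* and *Tfpi* were under the fold required, and with upper quartile scaling *Aldoa*, *Lyz2* and *Oas3* were.

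Changes of sign were found in genes that did not pass. After centring, *Adgre1*, *Col3a1*, *Cd79b* and *Hk1* were at 0.13, 0.13, 0.19 and 0.19. With upper quartile scaling, *Gsn*, *Ccl2* and *Hk3* were at -0.13, -0.089 and -0.14. Without 1 library, *Gsn* ranged from -0.055 to 0.090, *Vwf* from -0.022 to 0.91, *Cd79b* from -0.33 to 0.00054, *Camp* from -2.16 to 0.42, *Ccl2* from -0.074 to 0.27, *Hk3* from -0.039 to 0.092 and *Uty* from -0.32 to 3.12. Without both WT3 and MDM mdx1, which was added after seeing the data, *Camp* was at 0.0045 and *Uty* at -0.37. Apart from the scalings and left-out libraries named, the causes were not tested.

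Same-numbered MDM and gal-3+ libraries (mdx1, mdx4 and mdx5) shared little, with residual correlations of -0.03, 0.01 and 0.03, so the numbers were not taken as pairs. With the replicate block, 1497 genes were higher and 3050 lower in MDMs than in SkMRMs, and 603 and 1443 against gal-3+ macrophages. Groups of 3 or 4 libraries limit the precision, and genes with few reads, such as *Camp* and *Hpx*, carry little information.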
